A study of Homo sapiens with 18 samples.

Results

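The BCL2 family decides at the outer mitochondrial membrane whether a stressed cell lives or dies. Its 10 members described here were chosen by name, with earlier results of these data known, out of 19849 genes in the deposited expression table. BCL2, BCL2L1 (BCL-XL) and MCL1 are survival proteins that bind and hold back the killers of the family. BAX is a pore-forming effector: once released, it opens the outer membrane and cytochrome c escapes to switch on the caspases. The BH3-only genes BID, BCL2L11 (BIM), BMF, PMAIP1 (NOXA), BBC3 (PUMA) and BIK encode stress sensors that neutralize the survival proteins or activate BAX directly. In carcinoma cells BIM is known for carrying the death signal of kinase inhibitors, and BIM and BMF for taking part in TGFβ-induced death of epithelial cells, so a line that lives on through weeks of TGFβ is a setting in which the levels of these transcripts are of interest.

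The study compared gene expression before and after a TGFβ-induced epithelial-mesenchymal transition (EMT) in 3 human non-small cell lung cancer lines: A549, HCC827 and NCI-H358. Each line was profiled as parental cells and as its mesenchymal derivative, with 3 arrays per group, 6 groups and 18 arrays in all. All cells were grown in RPMI1640 with serum and glutamine. The derivatives carried, per the labels, 3 weeks of TGFβ at 2 ng/ml and were given medium without TGFβ on the day before lysis, whereas the study's methods give treatment times that differ between the lines. The parental groups had no TGFβ, and no parallel long culture of them is described, so time in culture and TGFβ cannot be told apart. The lines also differ in their driver mutations, HCC827 carrying mutant EGFR.

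Values are log2 levels after robust multi-array averaging (RMA) of Affymetrix U133 Plus 2.0 arrays, with 1 probe set per gene. A level says how bright the probe set of a gene was and is compared only for the same gene between groups, never between genes. A change is the mesenchymal mean minus the parental mean of a line, and was called where limma gave an adjusted p under 0.05 over all 19849 genes. The labels do not say that the 3 arrays of a group came from separate cultures, and a legend of the study calls its 3 samples separate biological ones made at 1 time, so p-values measure the spread between these samples only. In whole-culture RNA, fewer cells of a kind and less RNA per cell cannot be told apart. The probe sets of MCL1, PMAIP1, BBC3 and BAX are of the kind that matches several transcripts, and no splice form of any member is resolved.

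Array medians lay between 6.31 and 6.47, and the arrays of a group differed from each other with an SD of 0.163 to 0.282 against 0.719 to 0.896 between the states of a line. Of the 6 epithelial markers, 5 fell in A549 and 6 fell in each of HCC827 and NCI-H358, ESRP1 in A549 being the exception, while all 5 mesenchymal markers rose in every line. Of 6 markers of blood and endothelial cells, PTPRC had group means of 2.83 to 3.18, PECAM1 of 4.66 to 5.31 and CD68 of 6.00 to 7.55, and calls were limited to CD68 (higher in A549, lower in HCC827) and PECAM1 (higher in HCC827), whose part in the results was not tested. The array of HCC827 parental replicate 1 had the lowest quality weight of all, 0.273, against 0.444 to 2.27 for the other 17, and results that rest on it are also given without it.

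The start regions of 4 members are printed because these genes carry the results that follow. PMAIP1 rose in A549 and fell in the other lines, though its call in HCC827 was lost when some arrays were left out. BCL2L11 and BBC3 were called in A549 alone, and BCL2L1 fell in every line. Each sequence runs 5′ to 3′ on the strand of the gene, from 250 bases before to 50 bases after the RefSeq start site on GRCh38.p14. Capitals mark matches on either strand to 6 motifs of factors known to act on BH3-only genes. The motifs were the SMAD box CAGAC, the FOXO site GTAAACA, the AP-1 site TGACTCA, the RUNX site TGTGGT, the E2F site TTTCGCGC and the C/EBP-ATF letters TTGCAT.
PMAIP1 (NOXA), chr18:59899746-59900045, plus strand: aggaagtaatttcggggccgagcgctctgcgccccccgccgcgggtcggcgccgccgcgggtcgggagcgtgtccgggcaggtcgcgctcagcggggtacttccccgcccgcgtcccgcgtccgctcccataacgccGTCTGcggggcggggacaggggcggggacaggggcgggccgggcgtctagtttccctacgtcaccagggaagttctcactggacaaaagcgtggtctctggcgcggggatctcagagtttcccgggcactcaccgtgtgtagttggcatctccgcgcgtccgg
BCL2L11 (BIM), chr2:111120664-111120963, plus strand: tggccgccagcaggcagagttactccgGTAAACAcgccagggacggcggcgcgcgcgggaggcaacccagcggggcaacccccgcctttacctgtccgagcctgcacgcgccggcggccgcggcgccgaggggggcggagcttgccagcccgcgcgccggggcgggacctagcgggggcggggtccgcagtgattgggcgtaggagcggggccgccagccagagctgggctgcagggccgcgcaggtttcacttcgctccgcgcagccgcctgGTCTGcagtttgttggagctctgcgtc
BBC3 (PUMA), chr19:47232618-47232917, minus strand: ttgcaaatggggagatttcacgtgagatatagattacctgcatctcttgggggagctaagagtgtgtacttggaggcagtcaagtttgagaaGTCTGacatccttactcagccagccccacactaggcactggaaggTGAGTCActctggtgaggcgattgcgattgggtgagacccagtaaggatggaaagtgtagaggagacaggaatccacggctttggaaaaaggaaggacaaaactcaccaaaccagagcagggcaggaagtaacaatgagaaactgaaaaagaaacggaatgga
BCL2L1 (BCL-XL), chr20:31723914-31724213, minus strand: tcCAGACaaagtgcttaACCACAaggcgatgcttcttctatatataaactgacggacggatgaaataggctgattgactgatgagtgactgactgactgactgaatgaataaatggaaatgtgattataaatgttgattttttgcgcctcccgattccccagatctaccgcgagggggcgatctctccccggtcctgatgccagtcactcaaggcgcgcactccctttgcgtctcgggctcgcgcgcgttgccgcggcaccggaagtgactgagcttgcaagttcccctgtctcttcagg

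The promoters of PMAIP1 and BCL2L11 are CpG-rich, with 42 and 39 CpG dinucleotides in 300 bases against a median of 14 over the 35116 promoters of the RefSeq table, and BBC3 has 5. BCL2L11 is the member with a FOXO match, at -223 from the start site (negative positions lie before it), letters that 3.42% of all promoters hold. BBC3 has an AP-1 match at -113, held by 4.95% of all promoters, and a SMAD box at -158. The SMAD box is a short motif found in 45.3% of all promoters. It is held by 8 of the 14 promoters listed for 8 members, among them PMAIP1 at -113, BCL2L11 at 24 and BCL2L1 at -248. Those of BID among the 8 are overlapping windows that share a site, so 8 is not a count of separate sites. The BCL2L1 window printed here and that of BCL2 have a RUNX match (13.1% of all promoters), while a second BCL2L1 window, chr20:31722819-31723118, has no match to any of the motifs. None of the 14 windows holds the E2F site (0.515% of all promoters) or TTGCAT (10.1%). These matches describe letters only, and the table used here has no entry for MCL1 or BIK.

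The calls among the members were mostly higher in A549 and all lower in the other lines. In A549, 8 of the 10 members changed, against 43.4% of all genes: BCL2, MCL1, BAX, BCL2L11, PMAIP1 and BBC3 rose, and BCL2L1 and BID fell. In HCC827, 6 of 10 changed, against 45.8% of all genes, and all 6 fell: BCL2L1, MCL1, BAX, BID, PMAIP1 and BIK. In NCI-H358, 3 of 10 changed, against 41.4% of all genes, and all 3 fell (BCL2L1, PMAIP1 and BIK), although BMF joined as a higher gene when arrays were centred on their medians. Higher calls made up 16.6% (A549), 20.8% (HCC827) and 21.5% (NCI-H358) of all genes, and lower calls 26.8%, 25% and 19.8%. Of the calls over all genes in A549, 38.3% were higher, and 48.9% after centring the arrays, while the members stayed at 6 higher and 2 lower. Over the 10 members the change had a median of 0.41 (A549), -0.32 (HCC827) and -0.14 (NCI-H358), beside -0.021, 0.0051 and 0.015 over all genes.

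The changes of the members stayed under 2-fold in A549 but not in the other lines. In A549 0 members were called with a change of at least 2-fold, against 8.02% of all genes, 3.87% falling. In HCC827 3 fell that far, BCL2L1, BID and BIK, against 11.5% of all genes, 6.58% falling. In NCI-H358 3 did, BCL2L1, PMAIP1 and BIK, against 9.38%, 5.42% falling. At the stricter cutoff of over 5-fold and an adjusted p under 1e-05, 0 members passed in any line, against 1.9%, 2.95% and 2.17% of all genes. The parental and mesenchymal arrays did not overlap for 7 (A549), 6 (HCC827) and 7 (NCI-H358) members, against 52.4%, 51.2% and 51.6% of all genes, so that such separation was common in the table. With 3 arrays against 3, an exact two-sided permutation test of a single gene cannot go below p = 0.1.

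**Figure D1:**
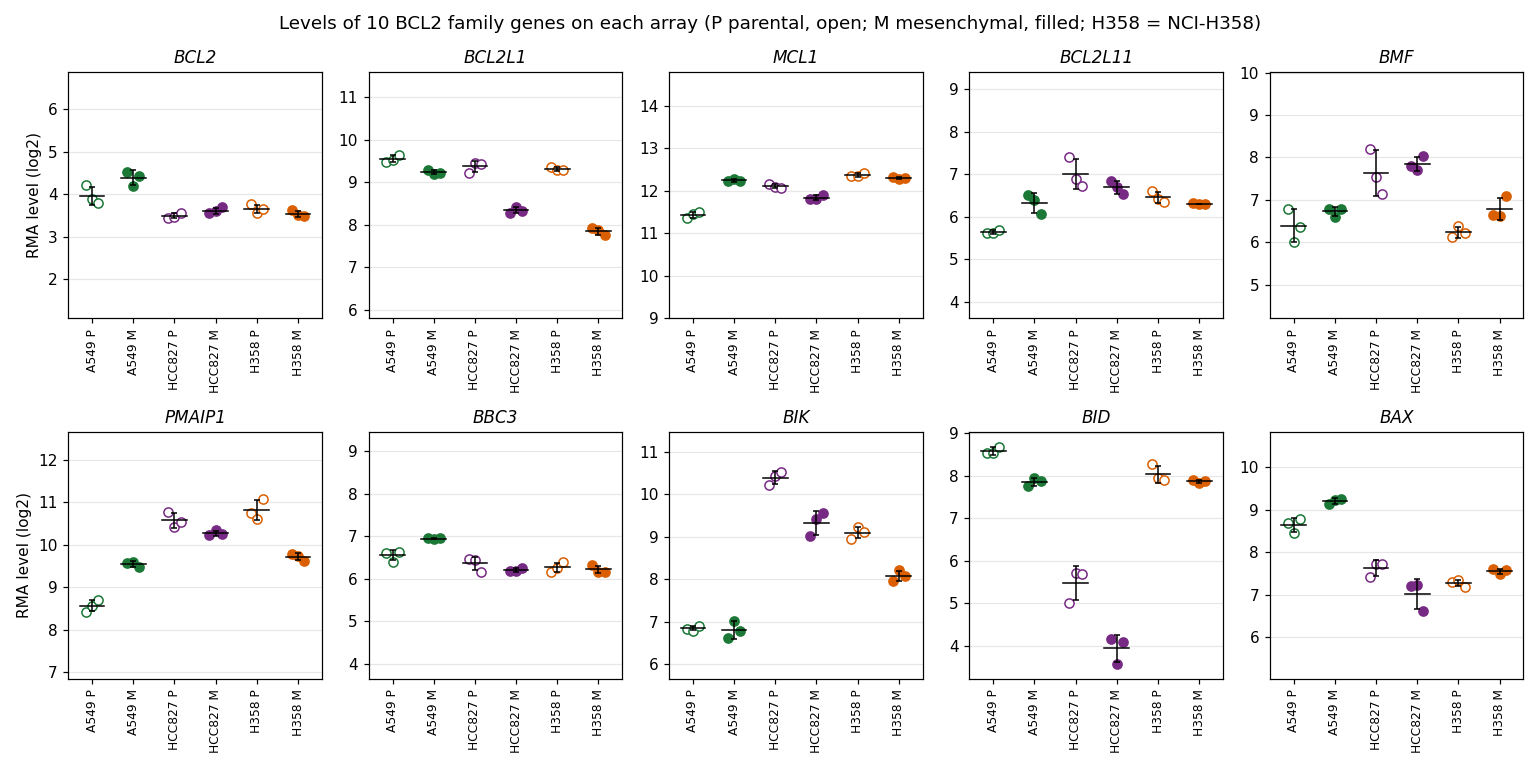
Log2 RMA level of each member on each array (points) in parental and mesenchymal cells of A549, HCC827 and NCI-H358, with the group mean as a bar and the SD as whiskers (n = 3 arrays); all panels span the same range of log2 units. BCL2L1 is lower in the mesenchymal derivatives of every line, whereas PMAIP1 is lowest in parental A549 (group mean 8.56) and highest in parental NCI-H358 (10.81).

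Among the survival genes, BCL2L1 was the member that fell in every line. Its log2 level in A549 was 9.49, 9.53 and 9.64 in parental cells and 9.29, 9.20 and 9.22 in the mesenchymal derivative. In HCC827 it was 9.23, 9.45 and 9.44 before and 8.29, 8.43 and 8.33 after, and in NCI-H358 9.35, 9.28 and 9.29 before and 7.93, 7.87 and 7.76 after. The groups did not overlap in any line. BCL-XL is the survival protein on which many epithelial tumours lean, and its parental group means lay between 9.31 and 9.56. It fell by 0.32 on the log2 scale in A549 (1.25-fold, SE 0.073, limma adjusted p = 0.00169), by 1.03 in HCC827 (2.04-fold, adjusted p = 3.03e-09) and by 1.45 in NCI-H358 (2.74-fold, adjusted p = 4.14e-11). The fall differed between each pair of lines, with adjusted p = 2.74e-05 for HCC827 against A549, 1.29e-07 for NCI-H358 against A549 and 0.00324 for NCI-H358 against HCC827. Over all genes, 6.14% fell in all 3 lines and 10.4% changed in 1 direction in all 3.

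MCL1 encodes a short-lived survival protein and moved in opposite directions in A549 and HCC827. The A549 arrays read 11.37, 11.46 and 11.50 before and 12.24, 12.28 and 12.23 after, a rise of 0.80 (1.75-fold, SE 0.058, adjusted p = 5.22e-09). The HCC827 arrays read 12.16, 12.10 and 12.07 before and 11.82, 11.80 and 11.91 after, and MCL1 fell by 0.26 there (1.20-fold, adjusted p = 0.00109). The arrays of each of these lines did not overlap. In NCI-H358 they were all but touching, at 12.34, 12.35 and 12.43 before and 12.33, 12.27 and 12.31 after, with a difference of -0.07 (95% interval -0.19 to 0.053, adjusted p = 0.391). Parental A549 stood at the low end, and its derivative came to the level of NCI-H358: mesenchymal A549 and mesenchymal NCI-H358 differed by 0.05 (adjusted p = 0.465).

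BCL2 itself read dim on every array, between 3.44 and 4.52, under the 25th percentile of each array. In A549 it was 4.21, 3.89 and 3.79 before and 4.52, 4.19 and 4.44 after, groups that overlapped, and the rise of 0.42 (1.34-fold, SE 0.10) was called at an adjusted p of 0.00282. The difference was 0.12 in HCC827 (interval -0.10 to 0.34, adjusted p = 0.394), and NCI-H358 gave -0.12 (interval -0.34 to 0.096, adjusted p = 0.404). At such levels an array carries little signal over background, and the A549 call was lost when each gene was tested alone, without limma's moderation (adjusted p = 0.124).

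BAX, the effector of the list, rose in A549 and fell in HCC827. Its log2 level in A549 was 8.68, 8.46 and 8.78 before and 9.13, 9.23 and 9.25 after, a rise of 0.56 (1.48-fold, SE 0.14, adjusted p = 0.00271). In HCC827 it was 7.42, 7.73 and 7.73 before and 7.21, 7.23 and 6.61 after, and fell by 0.61 (1.52-fold, adjusted p = 0.00124), a call not made without limma's moderation (adjusted p = 0.126). The groups did not overlap in either line, and mesenchymal replicate 3 was the lowest array in HCC827. In NCI-H358 BAX was 7.31, 7.34 and 7.18 before and 7.60, 7.50 and 7.59 after, which also did not overlap, with a difference of 0.29 (interval -0.0022 to 0.57, adjusted p = 0.11). Without HCC827 mesenchymal replicate 3 in the fit, the adjusted p for NCI-H358 was 0.0208. BAX, whose level was 1.01 lower in parental HCC827 than in parental A549 (adjusted p = 4.79e-06), was 2.18 lower in the mesenchymal derivative (4.55-fold, adjusted p = 2.97e-10).

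BID is cut by caspase-8 and carries the death receptor signal to the mitochondria. In A549 its level was 8.55, 8.53 and 8.69 before and 7.76, 7.94 and 7.89 after, and it fell by 0.72 (1.65-fold, SE 0.17, adjusted p = 0.00212). In HCC827, where it was 5.01, 5.72 and 5.70 before and 4.15, 3.57 and 4.09 after, it fell by 1.54 (2.91-fold, adjusted p = 7.46e-07). In both lines every mesenchymal array lay under every parental one. The mesenchymal HCC827 arrays also lay under the 25th percentile of an array (4.60 to 4.70), where there is little signal over background, so folds against that group are inexact. In NCI-H358 the level was 8.27, 7.94 and 7.90 before and 7.91, 7.83 and 7.87 after, overlapping groups with a difference of -0.17 (interval -0.53 to 0.19, adjusted p = 0.487). BID also had the widest span of the 10 members, 4.65 between its highest and lowest group mean, and HCC827 stood at the low end in either state: its mean of 3.94 in mesenchymal HCC827, in the dim range, stood against 7.86 in mesenchymal A549 (adjusted p = 2.3e-12).

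PMAIP1 gave the widest contrast between the lines. NOXA mainly binds MCL1 and marks it for destruction. In A549 the PMAIP1 level was 8.42, 8.56 and 8.69 before and 9.56, 9.60 and 9.47 after, a rise of 0.99 (1.98-fold, SE 0.11, adjusted p = 1.12e-06). In NCI-H358 it was 10.74, 10.61 and 11.07 before and 9.78, 9.73 and 9.62 after, and it fell by 1.10 (2.14-fold, adjusted p = 2.69e-07). Neither line had overlapping groups, and the difference of the change, NCI-H358 minus A549, was -2.09 (adjusted p = 9.88e-09). In HCC827 the level was 10.76, 10.41 and 10.53 before and 10.22, 10.33 and 10.24 after, and it fell by 0.31 (1.24-fold, adjusted p = 0.03). That fall was not called without HCC827 parental replicate 1 (adjusted p = 0.155), without mesenchymal replicate 1 (0.0837) or replicate 3 (0.0738), or after centring the arrays (0.1). Before treatment PMAIP1 was 4.76-fold higher in NCI-H358 than in A549 (log2 difference 2.25, adjusted p = 8.78e-12), and afterwards the difference was 0.16 (adjusted p = 0.221).

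BCL2L11 rose in A549 and was called in neither of the other lines. BIM binds all the survival proteins and is the BH3-only protein most tied to EGFR signalling, since ERK marks it for degradation. The A549 arrays read 5.63, 5.61 and 5.70 before and 6.51, 6.40 and 6.07 after, a rise of 0.68 (1.60-fold, SE 0.14, adjusted p = 0.000876) with no overlap. The HCC827 arrays read 7.41, 6.90 and 6.73 before and 6.84, 6.69 and 6.54 after, and overlapped (difference -0.33, interval -0.63 to -0.022, adjusted p = 0.0765). In NCI-H358 they read 6.60, 6.43 and 6.34 before and 6.32, 6.29 and 6.30 after, where every later array lay under the earlier ones but the difference of -0.15 had an interval of -0.45 to 0.15 (adjusted p = 0.467). Without HCC827 parental replicate 3, the lowest parental array, it fell in that line (-0.47, adjusted p = 0.0144), and without parental replicate 1, the highest, the difference was -0.13 (adjusted p = 0.445). Intervals are not adjusted for the number of genes, which is why that in HCC827 leaves out 0 while the call was not made. Parental HCC827 stood 1.37 above parental A549 (2.58-fold, adjusted p = 2.46e-07), a gap that was 0.36 between the derivatives (adjusted p = 0.0413).

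BBC3, whose protein PUMA binds every survival protein, rose in A549 and in no other line. The A549 arrays read 6.61, 6.40 and 6.62 before and 6.95, 6.93 and 6.95 after, a rise of 0.39 (1.31-fold, SE 0.087, adjusted p = 0.00124). In HCC827 they read 6.47, 6.43 and 6.17 before and 6.18, 6.19 and 6.26 after, and in NCI-H358 6.16, 6.26 and 6.39 before and 6.32, 6.17 and 6.15 after. The groups overlapped in both of these lines, with differences of -0.14 (interval -0.33 to 0.039, adjusted p = 0.2) and -0.054 (interval -0.24 to 0.13, adjusted p = 0.691). The rise in A549 was larger than the change in HCC827 (adjusted p = 0.00171) and that of NCI-H358 (adjusted p = 0.0067). Without HCC827 parental replicate 3, the lowest parental array, BBC3 fell in HCC827 (-0.24, adjusted p = 0.0315), and without parental replicate 1 the difference was -0.088 (adjusted p = 0.501).

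BIK, a BH3-only protein of the endoplasmic reticulum, fell in the lines that started with more of its transcript. HCC827 read 10.23, 10.43 and 10.52 before and 9.01, 9.43 and 9.55 after, and BIK fell by 1.06 (2.09-fold, SE 0.13, adjusted p = 2.78e-06). NCI-H358 read 8.96, 9.23 and 9.11 before and 7.96, 8.21 and 8.09 after, and BIK fell by 1.01 (2.02-fold, adjusted p = 5.9e-06). Neither line had overlapping groups, and the falls in HCC827 and NCI-H358 differed by 0.049 (interval -0.34 to 0.44, adjusted p = 0.879). A549 read 6.84, 6.79 and 6.90 before and 6.61, 7.02 and 6.78 after, overlapping values with a difference of -0.046 (interval -0.32 to 0.23, adjusted p = 0.819). Parental HCC827 was 11.7-fold above parental A549 (log2 difference 3.54, adjusted p = 2.59e-13).

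BMF, a BH3-only protein held at the cytoskeleton until attachment is lost, was the 1 member called in no line, as were 31.2% of all genes. The A549 arrays read 6.79, 6.02 and 6.36 before and 6.78, 6.60 and 6.79 after (difference 0.33, interval -0.14 to 0.80, adjusted p = 0.256). The HCC827 arrays read 8.21, 7.54 and 7.14 before and 7.79, 7.71 and 8.04 after (difference 0.21, interval -0.26 to 0.68, adjusted p = 0.486), and parental replicate 1 was the highest of them. Without that array the HCC827 difference was 0.50 (adjusted p = 0.0488). In NCI-H358 the groups did not overlap, at 6.12, 6.38 and 6.22 before and 6.64, 6.63 and 7.09 after, and the difference of 0.55 had an interval of 0.078 to 1.02 (adjusted p = 0.0591). It was called there with a separate fit (0.012), an intensity trend (0.0339), array weights (0.0462) and centred arrays (0.0333), and without HCC827 parental replicate 1 (0.0183) or 3 (0.0298) or A549 parental replicate 1 (0.0427) or 2 (0.0464). BMF had the widest spread within a group of all members, with an SD of up to 0.54 (n = 3), and the change of 0.39 seen for BBC3 in A549 lies inside the interval of BMF in each line.

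**Figure D2:**
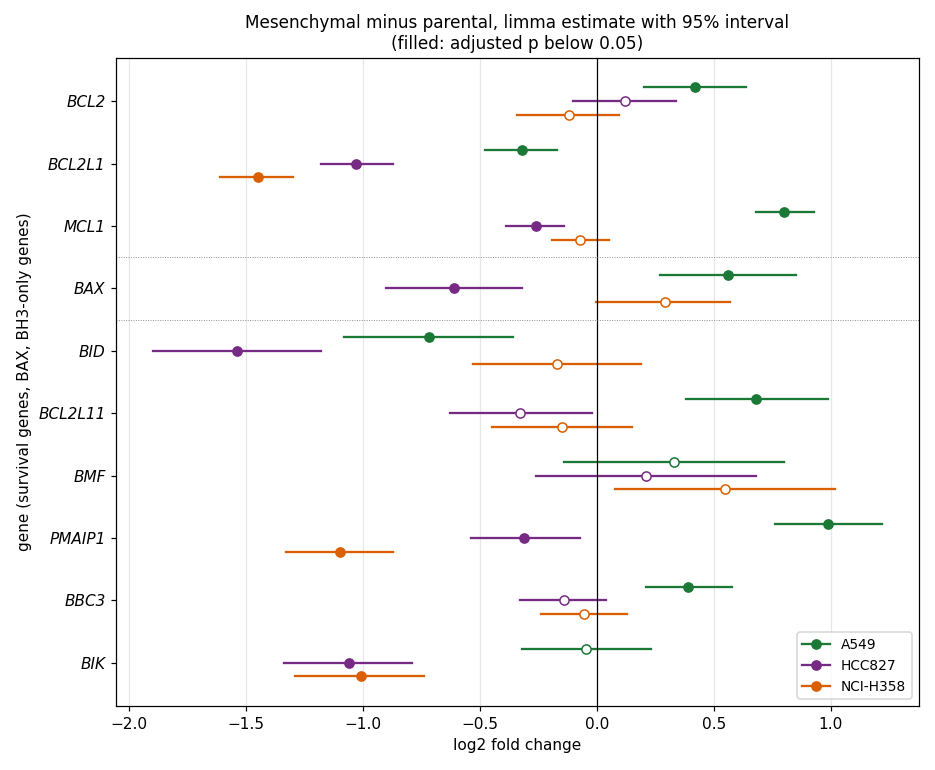
Log2 fold change, mesenchymal minus parental, of each member in A549, HCC827 and NCI-H358 (points, limma estimates from 3 against 3 arrays) with 95% intervals, filled where the adjusted p was under 0.05. A549 has 6 filled points above 0 and 2 below, and HCC827 and NCI-H358 have 6 and 3 filled points, all below 0.

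Whether the lines differed in these changes was tested as the difference of the change. The change was lower in HCC827 than in A549 for 8 of 10 members, and higher for 0, against 42.2% of all genes in either direction, 19.5% lower and 22.7% higher. It was lower in NCI-H358 than in A549 for 7 of 10 and higher for 0, against 42.8% in either direction, 17.1% lower and 25.7% higher. These 2 comparisons share the A549 arrays and are no independent evidence of each other. MCL1, BCL2L1, BCL2L11, PMAIP1, BBC3 and BIK passed in both. BCL2 differed for NCI-H358 alone and BID and BAX for HCC827 alone. BMF passed in neither, with intervals of -0.78 to 0.55 and -0.45 to 0.88. With arrays weighted by quality, BCL2 also passed for HCC827 (-0.36, limma adjusted p = 0.0305). So did BID (0.52, adjusted p = 0.0438) and BAX (-0.38, adjusted p = 0.047) for NCI-H358. The difference of BCL2 for HCC827 (-0.30, adjusted p = 0.108) passed without A549 parental replicate 1 (-0.43) or mesenchymal replicate 2 (-0.40), and that of BID for NCI-H358 (0.55, adjusted p = 0.0766) without NCI-H358 parental replicate 1 (0.67), HCC827 parental replicate 1 or HCC827 mesenchymal replicate 2. Between NCI-H358 and HCC827, 4 members differed against 37.9% of all genes: the change in NCI-H358 was lower for BCL2L1 and PMAIP1 (16.8% of all genes) and higher for BID and BAX (21.1%). MCL1 missed the threshold there (0.19, adjusted p = 0.0764) and passed without HCC827 mesenchymal replicate 3 or NCI-H358 parental replicate 3 (0.23 in each case).

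**Figure D3:**
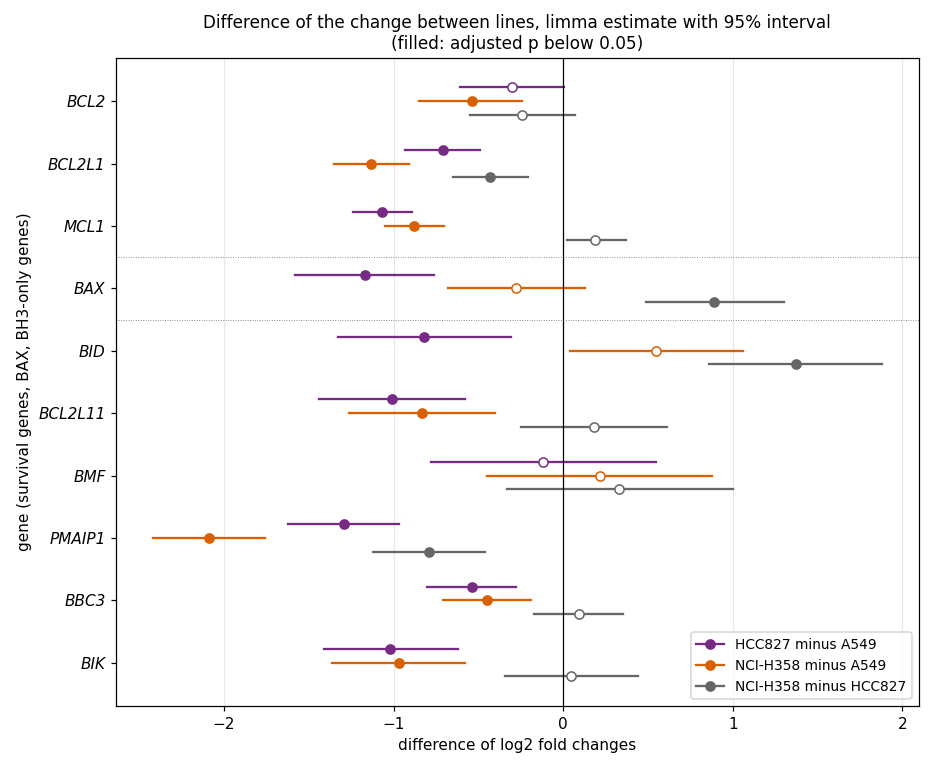
Difference of the log2 fold changes between pairs of lines for each member (points, limma estimates) with 95% intervals, filled where the adjusted p was under 0.05. All 8 filled points of HCC827 minus A549 and all 7 of NCI-H358 minus A549 lie below 0, and BID and BAX are the filled points above 0, both for NCI-H358 minus HCC827.

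Levels were also compared between the lines within a state. Before treatment, 9 of 10 members differed between HCC827 and A549 (57.1% of all genes), 9 between NCI-H358 and A549 (57.9%) and 6 between NCI-H358 and HCC827 (52.6%). After treatment the counts were 10 (56.6% of all genes), 5 (58.8%) and 8 (52.6%). Between the derivatives of NCI-H358 and A549, the members not called were MCL1, BCL2L11, BMF, PMAIP1 and BID. Ordered by group mean, 22 of the 50 steps between neighbouring groups passed the test. The 15 pairs of groups, not sorted by level, gave calls for 41.4% to 62.7% of all genes. Neighbours are the closest groups of each gene, so the steps cannot be set against those shares. A share of such steps over all genes was not computed. For BIK the order was parental HCC827, mesenchymal HCC827, parental NCI-H358, mesenchymal NCI-H358, parental A549 and mesenchymal A549, and 3 of the 5 steps passed. BBC3, BCL2L11 and BMF had 1 passing step each. For BBC3 it lay at the top (mesenchymal over parental A549). For BCL2L11 it lay at the bottom (mesenchymal NCI-H358 over parental A549, 0.66, limma adjusted p = 0.000695). For BMF both HCC827 groups stood above the rest (parental HCC827 over mesenchymal NCI-H358, 0.84, adjusted p = 0.00336).

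Genes with the most similar profile over the 18 arrays were sought for the 7 members whose group means spanned at least 1, among the 9060 genes that spanned as much. Pearson r is given as a description, since arrays of a group share their line and state. BCL2L1 ran closest to PPP1R9A (r = 0.982), PPP1R26 (0.977) and KRT18 (0.972). BAX ran closest to ODC1 (0.968), C3 (0.965) and HACD3 (0.961). For BID the genes were C15orf61 (0.973), SNX5 (0.973) and EMC4 (0.972). For PMAIP1 they were EMB (0.975), IRF9 (0.975) and SAMD9 (0.96), for BCL2L11 PELI1 (0.939), STAT2 (0.926) and ETV6 (0.913), for BIK PIK3R3 (0.99), AMMECR1 (0.981) and SNX18 (0.981), and for BMF SPATA9 (0.935), CDRT4 (0.933) and ZNF713 (0.927).

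The counts of related genes that follow stand against 16.6% of all genes higher and 26.8% lower (A549), 20.8% and 25% (HCC827), and 21.5% and 19.8% (NCI-H358). Of 13 other BCL2 family genes, 2 rose and 4 fell in A549, 1 rose and 8 fell in HCC827, and 4 rose and 3 fell in NCI-H358, with median changes of -0.17, -0.40 and -0.056. BCL2L15 fell from 6.64 to a dim 3.34 in HCC827 (adjusted p = 6.66e-13), and BCL2L14 fell there by 1.56 (adjusted p = 2.96e-07), to 4.71. BNIP3, a mitophagy receptor of the family, fell in A549 (-0.97) and HCC827 (-1.07) and rose in NCI-H358 (0.66). BCL2L13 fell by 0.57 in A549 and 1.02 in HCC827 and read -0.12 in NCI-H358 (adjusted p = 0.287). BCL2A1, a survival gene and NF-κB target picked after its values were seen, rose by 1.99 in A549 (level 10.31 to 12.3) and by 0.85 in NCI-H358 and fell by 1.71 in HCC827.

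Downstream of BAX, 5 of 10 genes of the apoptosome, the caspases and the released mitochondrial factors rose and 3 fell in A549, 2 rose and 6 fell in HCC827, and 5 rose and 3 fell in NCI-H358, with medians of 0.11, -0.33 and 0.082. CYCS, cytochrome c, rose in all 3 lines, by 0.42, 1.14 and 0.57 in A549, HCC827 and NCI-H358. APAF1, the scaffold on which cytochrome c assembles the apoptosome, rose in A549 (0.94) and NCI-H358 (0.77) and fell in HCC827 (-0.34). CASP6, an executioner caspase, rose in A549 (0.71) and fell in HCC827 (-1.31) and NCI-H358 (-0.95). ENDOG, a nuclease of mitochondria, fell by 0.92 in A549 and by 0.70 in HCC827 and rose by 0.29 in NCI-H358.

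Of the 7 inhibitor of apoptosis (IAP) genes, 3 rose and 2 fell in A549, 3 rose and 2 fell in HCC827, and 2 rose and 3 fell in NCI-H358, with medians of 0.16, 0.29 and 0.23. BIRC3, an NF-κB target that encodes cIAP2, fell at least 2-fold in every line. It fell by 1.86 in A549 (9.65 to 7.79, limma adjusted p = 1.97e-09), 3.44 in HCC827 (9.66 to 6.23, adjusted p = 4.92e-13) and 2.08 in NCI-H358 (6.77 to 4.69, adjusted p = 3.82e-10). The level of 4.69 lies at the edge of the dim range, so the fold in NCI-H358 is inexact. NAIP rose by 0.49, 0.63 and 0.35. XIAP, the direct caspase inhibitor, rose in A549 (0.39) and HCC827 (0.34) and fell in NCI-H358 (-0.31). BIRC5, or survivin, fell in A549 (-0.80) and rose in HCC827 (1.51).

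In the death receptor arm that feeds into BID, 5 of 14 genes rose and 3 fell in A549, 2 rose and 9 fell in HCC827, and 2 rose and 7 fell in NCI-H358, with medians of 0.043, -0.40 and -0.27. TNFSF10, the ligand TRAIL, fell by 3.55 in HCC827 (7.70 to 4.15, the latter dim, adjusted p = 3.78e-10) and by 1.13 in NCI-H358 (6.68 to 5.54), and read 3.20 and 3.17 in A549. The TRAIL receptor gene TNFRSF10A fell in each line, by 0.36, 0.35 and 1.45, and the decoy receptor gene TNFRSF10D rose in each, by 1.62, 0.38 and 1.97. CFLAR, which encodes the caspase-8 inhibitor FLIP, fell in each line too, by 0.35, 0.63 and 0.94.

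Of 15 genes for transcription factors known to act on BH3-only genes, 5 rose and 3 fell in A549, 4 rose and 2 fell in HCC827, and 7 rose and 2 fell in NCI-H358, with medians of 0.15, -0.077 and 0.27. JUN, an AP-1 subunit, rose at least 2-fold in every line, by 1.07, 1.22 and 2.19. FOXO1 rose by 3.15 in A549 (7.40 to 10.56, adjusted p = 4.66e-12) and by 1.14 in NCI-H358, and read 0.14 in HCC827 (adjusted p = 0.429). SMAD3, which carries the TGFβ signal, fell in A549 (-1.02) and NCI-H358 (-2.25) and read -0.20 in HCC827 (adjusted p = 0.111). TP63 rose by 1.81 in A549 and fell by 4.98 in NCI-H358 (10.02 to 5.04, adjusted p = 1.1e-14).

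MCL1 and BIM are also set by protein turnover, which these arrays do not measure. The list of 9 genes for that turnover also held DYNLL1 and DYNLL2, dynein light chains that tether proteins rather than degrade them. Of these 9, 2 rose and 1 fell in A549, 5 rose and 2 fell in HCC827, and 4 rose and 0 fell in NCI-H358. The medians were 0.067, 0.28 and 0.22. FBXW7, part of a ubiquitin ligase for MCL1, rose in each line, by 0.68, 0.38 and 0.57. USP9X, a deubiquitinase that stabilizes MCL1, rose by 0.90 in HCC827 and 0.94 in NCI-H358 and read 0.18 in A549 (adjusted p = 0.101). DYNLL2, the dynein light chain that tethers BMF, fell by 0.36 in A549 and 1.42 in HCC827 and read 0.091 in NCI-H358 (adjusted p = 0.581), and HUWE1, a ligase for MCL1, rose by 0.39 in HCC827 (adjusted p = 0.0118).

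**Figure D4:**
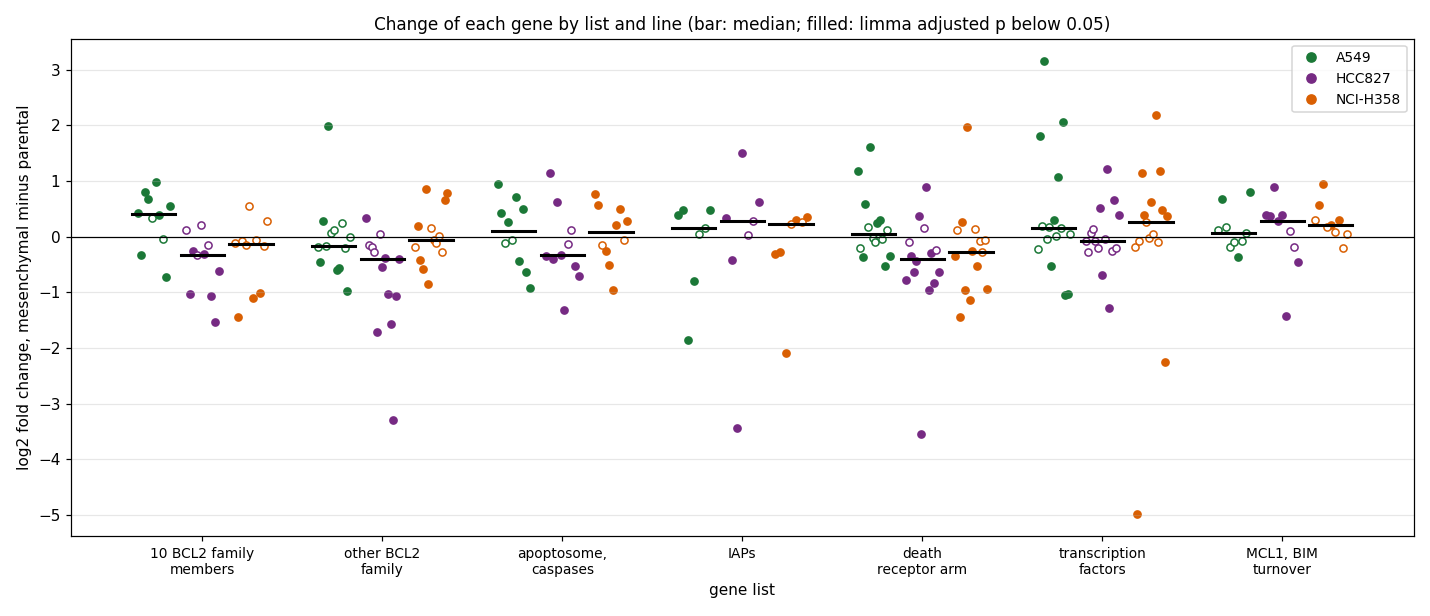
Log2 fold change, mesenchymal minus parental, of each gene (points) of the 10 members and of 6 lists of related genes in A549, HCC827 and NCI-H358, filled where the limma adjusted p was under 0.05, with the median of each list and line as a bar. The members have their median at 0.41 in A549, and at -0.32 (HCC827) and -0.14 (NCI-H358) in the other lines.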

How the data were processed

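Total RNA of 18 samples was hybridized to Affymetrix U133 Plus 2.0 arrays. The deposited log2 values are the authors' normalized levels, made with robust multi-array averaging (RMA, named in the submitters' processing notes, no version given), with 1 probe set kept per gene; how that probe set was chosen is not given in the sources used here. Arrays were grouped by the cell line and state in their labels. The values were used as deposited. A limma 3.58.1 model (R 4.3.3, lmFit and eBayes) was fitted to 19849 genes, 18 arrays and 6 groups with no covariate, p-values were adjusted by Benjamini-Hochberg over all genes, and an adjusted p under 0.05 was a call. Contrasts were mesenchymal against parental in each line, their differences between lines, and neighbours in the order of group means. The fit was tested on simulated data. The number of arrays limits the precision, and no scan date or other batch was given.

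The members and gene lists were chosen with earlier results of these data known. All 10 members were named in every comparison. Of a list, genes were named that passed the test with at least 2-fold change in the same direction in all 3 lines, or were among the 4 with the largest mean change of those called in a line; BCL2A1 was added after its values were seen. Some items are not reported here. Promoters came from a RefSeq table on GRCh38.p14 (35116 promoters of 27305 genes, 8 of 10 members matched). Alternatives were a separate fit per line, an intensity trend, array quality weights, arrays centred on their medians, probe sets under the 25th percentile left out, a plain t-test, fold thresholds and each array left out.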

Additional observations from a re-analysis of the deposited data

Results flagged for a closer look

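Each value here is a difference of the log2 change (mesenchymal minus parental) between 2 lines that passed the limma test of the difference itself over all genes, and no explanation was tested. For HCC827 minus A549 the survival genes gave -0.71 for BCL2L1 and -1.07 for MCL1, BAX gave -1.17, and the BH3-only genes gave -0.82 for BID, -1.01 for BCL2L11, -1.29 for PMAIP1, -0.54 for BBC3 and -1.02 for BIK. For NCI-H358 minus A549 they were -0.54 for BCL2, -1.13 for BCL2L1, -0.88 for MCL1, -0.83 for BCL2L11, -2.09 for PMAIP1, -0.45 for BBC3 and -0.97 for BIK. For NCI-H358 minus HCC827 they were -0.43 for BCL2L1, -0.79 for PMAIP1, 1.37 for BID and 0.89 for BAX. For MCL1 and BAX in HCC827 and A549, and for PMAIP1 in A549 against both other lines, the called changes had opposite signs. The PMAIP1 call in HCC827 was lost in several refits, and that of BAX in HCC827 with a plain t-test. BCL2L1 fell in every line, and its differences were in size alone.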

How the results depend on the processing

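Of 60 member results, 36 were called, and none of these reversed. Over all genes, the share called in the same comparisons ran from 37.9% to 45.8%, and these comparisons are not independent of each other. Of the 36, 33 kept their call in every refit run with the adjusted p as the only threshold. A separate fit and a plain t-test were run for 30 of the 60, and fold thresholds are given as counts. The calls lost were PMAIP1 in HCC827 (-0.21 with array weights, adjusted p = 0.0738), BCL2 in A549 and BAX in HCC827, the latter pair with a plain t-test. Calls were gained for BMF in NCI-H358 (adjusted p = 0.012 with a separate fit) and in A549 (0.0375 with array weights) and for BAX in NCI-H358 (0.0123 with a separate fit), among others. The number of members called was 8 in A549 and became 4 at 1.5-fold, 0 at 2-fold and 0 at the study's cutoff; 6 in HCC827 became 3 at 2-fold and 0 at the study's cutoff; and 3 in NCI-H358 became 5 with a separate fit and 0 at the study's cutoff. Leaving out the arrays 1 at a time, the counts ran from 8 to 8, 5 to 8 and 3 to 4 in these lines, and for the differences between lines from 8 to 9, 7 to 8 and 4 to 5; the steps in the order of levels ran from 20 to 23 of 50 and the marker calls from 32 to 32 of 33. Shares of all genes were not set beside the counts at 1.5-fold, with a separate fit or with arrays left out. Those counts show only how far the calls of the members depend on the setting. The plain t-test is not the study's test for its arrays. At an unadjusted p under 0.05 it gave 7, 5 and 5 members (9040, 8645 and 8917 genes). After Benjamini-Hochberg adjustment it gave 7, 4 and 4 members (7290, 6879 and 7142 genes). Signs turned for uncalled members only: BIK in A549 (0.022 with centred arrays, -0.15 to 0.051 with an array left out), BMF in HCC827 (-0.032 to 0.50), BBC3 in NCI-H358 (-0.11 to 0.0047), and the differences of BMF for NCI-H358 minus A549 (-0.011 with array weights), of BMF for HCC827 minus A549 (-0.36 to 0.17), and of BCL2L11 (-0.025 to 0.32) and BIK (-0.11 to 0.16) for NCI-H358 minus HCC827. The causes were not tested. No paired analysis was possible because the labels give no replicate numbers that groups share. BCL2 lay under the filter on dim probe sets and was not tested there, and low signal limits what its values can show.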
